A study of Mus musculus with 6 samples.

Results

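NRF2, encoded by Nfe2l2, and 9 genes tied to it were followed in lung group 2 innate lymphoid cells (ILC2s) with and without a floxed Piezo1 allele. The members were named as a list (Nfe2l2, Keap1, Nqo1, Gclc, Gclm, Hmox1, Txnrd1, Srxn1, Slc7a11 and Gsr) and chosen by their scaled counts in each library with the results of this same comparison known, so their values are given as a description and not as a test. All 10 were among the 18057 genes of the deposited table, and all 10 passed the filter on low counts that left 14149 genes tested. The lowest estimated count of a member in any library was 138, for Slc7a11, so no member passed through one group alone.

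RNA was sequenced from 6 libraries of sorted mouse lung ILC2s, 3 per genotype. The control group carried Il7r-Cre (genotype label Il7rcre), although its sample titles say WT, and the Piezo1 KO group carried Il7r-Cre with floxed Piezo1 (label Il7rcrePiezo1flx), which encodes a mechanically gated cation channel. All mice had 3 intranasal doses of 1 µg IL-33, and the sorted cells of both groups were then cultured (24 h) in IL-7 (10 ng/mL) plus IL-2 (10 ng/mL). The Il7r driver is active in lymphoid cells at large and so does not confine the deletion to ILC2s. Ages, sexes and the number of animals per library are not given in the labels, so every p-value here refers to spread among libraries that could be technical replicates.

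NRF2 is the transcription factor of the cellular response to oxidants and electrophiles. KEAP1 holds it in the cytoplasm and hands it to a cullin 3 ubiquitin ligase for degradation. When cysteines of KEAP1 are modified, NRF2 escapes, pairs with a small MAF protein and binds antioxidant response elements near genes that make glutathione, regenerate thioredoxin and glutathione with NADPH, and detoxify quinones and heme. In activated lymphocytes these systems buffer the oxidants that come with growth and cytokine secretion.

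Each library held 13059046 to 33459904 estimated counts. Piezo1, the check of the labels, was at 247, 278 and 160.0 CPM (counts scaled to library size by TMM) in control replicates 1, 2 and 3 and at 150.0, 109 and 122 CPM in the Piezo1 KO replicates. The groups did not overlap, but the log2 fold change of −0.85 ± 0.21 (SE) did not pass the threshold of 0.05 (adjusted p = 0.112, edgeR quasi-likelihood, adjusted by Benjamini-Hochberg across the 14149 genes). It passed in 3 of 12 alternative fits, among them the fit without control replicate 3 (adjusted p = 0.0163, with a range of 0.00193 to 0.464 over the alternatives). A gene-level count can take in exons outside the floxed stretch, and 2441 of its exonic bases also belong to Ctu2 on the opposite strand, so this count does not measure intact transcript alone. ILC2 markers were detected in every library, with all 14 measured and a summed level of 11991 to 12874 CPM in control and 13820 to 14776 CPM in Piezo1 KO, a sum carried mostly by Il5 and Il2ra. Single markers did not all move with it. Among them, the fit across all genes called Il7r, the gene of the Cre driver, lower (log2 fold change −1.03 ± 0.12, SE, adjusted p = 0.00722, edgeR), Icos lower (−0.61 ± 0.09, adjusted p = 0.0168) and Il17rb higher (0.74 ± 0.10, adjusted p = 0.0136). Gata3 was at 954 to 1035 CPM in control and 703 to 789 CPM in Piezo1 KO, without overlap. Rora, at 173 to 213 and 157 to 169 CPM, was also lower without overlap, and neither was called. Higher without overlap, and also not called, were Id2 (985 to 1246 and 1288 to 1552 CPM) and Klrg1 (274 to 305 and 331 to 396 CPM). The same held for Il2ra (3143 to 3842 and 4243 to 4401 CPM) and Il5 (3986 to 4082 and 4578 to 5483 CPM). It held too for Thy1, which was low throughout, at 5.47 to 9.31 and 14.2 to 17.3 CPM. Il1rl1, Il13, Areg and Ptprc overlapped between the groups.

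Markers of other cells lay at lower summed levels, and several of these sums did not overlap between the groups. Of 12 macrophage markers 8 were measured, and they summed to 5.43 to 12.7 CPM in control and 4.02 to 7.77 CPM in Piezo1 KO. Within that sum Csf1r was lower and Cd68 higher in Piezo1 KO, each without overlap and not called. Of 8 mast cell and basophil markers 6 were measured, at 175 to 245 CPM against 127 to 139 CPM, and without Kit, which makes up most of that sum, at 12.2 to 17.1 CPM against 4.31 to 5.77 CPM. The sum of the 5 erythroid markers measured of 8 went the other way, at 4.002 to 5.40 CPM against 26.7 to 31.3 CPM. Hba-a1 made up most of it, at 3.52 to 4.87 CPM in control and 23.6 to 28.2 CPM in Piezo1 KO, followed by Hba-a2. Hbb-bt, Klf1 and Gata1 were each under 1 CPM in every library and overlapped between the groups. Neutrophil markers (2 measured of 8) stayed under 1 CPM in sum, at 0 to 0.906 CPM in control and 0.345 to 0.555 CPM in Piezo1 KO. Sums for T cells were 154 to 196 and 119.9 to 152 CPM (6 of 9 markers), for B and plasma cells 34.4 to 40.3 and 80.2 to 104 CPM (3 of 7), for eosinophils 3.43 to 6.30 and 6.72 to 7.98 CPM (1 of 5), for epithelium 11.97 to 17.8 and 16.1 to 20.9 CPM (3 of 7) and for endothelium and stroma 0.675 to 1.56 and 5.47 to 8.03 CPM (2 of 7), control first. The lowest summed count of any gene in the deposited table was 10, so no measured marker could be at 0 in all 6 libraries. Markers not measured may be missing from the table because their counts were low. Of the measured markers of other cells, the fit across all genes called Cma1 lower and Hba-a1, Hba-a2, Ighm and Pdgfrb higher in Piezo1 KO. The mitochondrially encoded share of counts was 0.560% to 0.633% in control and 0.641% to 0.841% in Piezo1 KO. The part of these cells and of RNA composition in the values below was not tested, and in bulk RNA fewer cells of a type cannot be told apart from less RNA per cell.

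The regulator itself differed little. Nfe2l2 (chromosome 2, 75675513 to 75704641 in mm10, minus strand) was at 53.3, 51.7 and 51.6 CPM in the control replicates and at 50.1, 47.8 and 44.8 CPM in the Piezo1 KO replicates. Every Piezo1 KO library lay below every control library, by a narrow margin. The group means were 52.2 ± 0.97 and 47.6 ± 2.63 CPM (SD, n = 3), giving a log2 fold change of −0.13 ± 0.09 (SE). Keap1, the repressor that targets NRF2 for degradation (chromosome 9, 21229730 to 21239361, minus strand), was at 106, 134 and 113 CPM in control and 112, 97.3 and 90.2 CPM in Piezo1 KO. Control replicate 2 was the highest library and the groups overlapped. Keap1 had a log2 fold change of −0.24 ± 0.12 (SE). In the reference annotation 510 exonic bases of Keap1 are shared with the antisense gene Gm16754, and the sources used here do not say whether counting used the strand.

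Promoter stretches are shown for the regulator and for a pair of its targets that stood lower in Piezo1 KO, since the levels of all of them were below control in every Piezo1 KO library. Each holds the 250 bases before the RefSeq start site (build GRCm38.p6), 5′ to 3′ on the strand of the gene, and capitals mark a match on either strand to TGACNNNGC, the core of the antioxidant response element. The Nfe2l2 window is chr2:75704664-75704913 on the minus strand, the Nqo1 window chr8:107403206-107403455 on the minus strand and the Gclm window chr3:122245307-122245556 on the plus strand.
Nfe2l2: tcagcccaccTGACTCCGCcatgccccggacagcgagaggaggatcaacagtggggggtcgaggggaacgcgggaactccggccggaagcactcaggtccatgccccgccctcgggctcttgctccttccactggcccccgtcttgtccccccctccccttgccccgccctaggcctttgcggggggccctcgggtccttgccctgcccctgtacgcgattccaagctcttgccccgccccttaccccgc
Nqo1: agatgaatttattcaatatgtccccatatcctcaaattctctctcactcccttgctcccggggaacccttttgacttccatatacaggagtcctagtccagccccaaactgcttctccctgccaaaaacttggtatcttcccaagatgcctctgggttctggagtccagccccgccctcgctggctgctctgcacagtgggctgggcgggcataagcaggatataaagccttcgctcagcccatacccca
Gclm: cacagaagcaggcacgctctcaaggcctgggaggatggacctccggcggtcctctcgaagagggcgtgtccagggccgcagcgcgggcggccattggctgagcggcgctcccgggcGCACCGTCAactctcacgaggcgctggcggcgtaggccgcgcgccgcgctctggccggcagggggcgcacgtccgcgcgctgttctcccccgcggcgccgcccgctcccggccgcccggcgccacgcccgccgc
The match in the Nfe2l2 window begins 240 bases before the start and reads along the gene. The match in the Gclm window begins 134 bases before the start and lies on the other strand. The Nqo1 window holds no match, which says only that these letters are not within 250 bases of that start. The promoter table matched 7 of the 10 genes with 9 windows, of which 3 held a match (Nfe2l2, Gclm and 1 of the windows of Txnrd1), and 10.2% of all 32851 windows of this length held one. A match is a description of sequence, and no binding was measured here.

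Nqo1, Gclc and Gclm showed the widest differences of the 10 genes. Nqo1 encodes NAD(P)H quinone dehydrogenase 1, which reduces quinones without releasing oxygen radicals (chromosome 8, 107388225 to 107403206, minus strand). It was at 67.7, 80.7 and 76.8 CPM in the control replicates and 31.4, 36.8 and 40.2 CPM in the Piezo1 KO replicates. The highest Piezo1 KO library lay well under the lowest control library. The means were 75.0 ± 6.68 and 36.1 ± 4.47 CPM (SD, n = 3), 2.08-fold lower in Piezo1 KO, with a log2 fold change of −1.05 ± 0.12 (SE).

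Glutamate-cysteine ligase makes the rate-limiting step of glutathione synthesis from a catalytic and a modifier subunit. Gclc, the catalytic subunit (chromosome 9, 77754535 to 77794485, plus strand), was at 275, 281 and 239 CPM in control and 163, 153 and 169 CPM in Piezo1 KO. The groups were far apart, at means of 265 ± 22.4 and 162 ± 8.14 CPM (SD, n = 3), and Gclc was 1.64-fold lower, with a log2 fold change of −0.71 ± 0.10 (SE). Gclm, the modifier subunit (chromosome 3, 122245557 to 122270732, plus strand), was at 124, 109 and 139.6 CPM in control and 84.4, 87.0 and 82.9 CPM in Piezo1 KO. Its Piezo1 KO libraries lay close together and all below control, at means of 124 ± 15.2 and 84.7 ± 2.07 CPM (SD, n = 3) and a log2 fold change of −0.55 ± 0.11 (SE). Gclm shares 244 exonic bases with the pseudogene Gm6061 and 296 with Gm17494 on the opposite strand, so its count may hold reads of either.

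Hmox1 encodes heme oxygenase 1, which opens the heme ring to biliverdin, iron and carbon monoxide (chromosome 8, 75093621 to 75100589, plus strand). It was at 50.2, 64.5 and 56.3 CPM in control and 39.1, 41.8 and 38.6 CPM in Piezo1 KO, again with no overlap. The means were 57.0 ± 7.17 and 39.8 ± 1.72 CPM (SD, n = 3), giving a log2 fold change of −0.52 ± 0.11 (SE). Macrophages also make much heme oxygenase 1. Their summed markers were at 5.43 to 12.7 CPM in control and 4.02 to 7.77 CPM in Piezo1 KO. That sum hides moves both ways among the 4 tested. Csf1r was lower without overlap, at 1.05 to 1.12 CPM in control and 0 to 0.380 CPM in Piezo1 KO. Cd68 was higher without overlap, at 1.91 to 2.84 and 3.09 to 4.18 CPM. Lyz2 and Itgam overlapped, with log2 fold changes of −2.11 and −1.95, and none of the 4 was called. The part of such cells in the Hmox1 value was not tested.

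The NADPH-driven reductases stood slightly lower. Gsr, glutathione reductase (chromosome 8, 33652523 to 33698163, plus strand), was at 281, 268 and 270.1 CPM in control and 217, 227 and 240.3 CPM in Piezo1 KO, a log2 fold change of −0.26 ± 0.08 (SE). Txnrd1, the cytosolic thioredoxin reductase (chromosome 10, 82833951 to 82897712, plus strand), was at 597, 582 and 526 CPM in control and 514, 471 and 477 CPM in Piezo1 KO, a log2 fold change of −0.22 ± 0.09 (SE). Neither gene's groups overlapped, although for Txnrd1 the lowest control library and the highest Piezo1 KO library nearly met.

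The other pair of targets overlapped between the groups. Srxn1, sulfiredoxin, which restores over-oxidised peroxiredoxins (chromosome 2, 152105516 to 152111376, plus strand), was at 59.9, 78.6 and 71.2 CPM in control and 60.1, 63.3 and 62.0 CPM in Piezo1 KO. Its control libraries spread more widely than its Piezo1 KO libraries, and the log2 fold change was −0.18 ± 0.11 (SE). Slc7a11, the cystine importer xCT that supplies cysteine for glutathione (chromosome 3, 49892526 to 50443614, minus strand), was at 9.96, 7.91 and 10.3 CPM in control and 10.4, 8.26 and 9.82 CPM in Piezo1 KO. Its means of 9.41 ± 1.31 and 9.49 ± 1.11 CPM (SD, n = 3) lay within the spread of either group, with a log2 fold change of 0.02 ± 0.18 (SE), which was negative in 4 of 12 alternative fits.

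**Figure D1:**
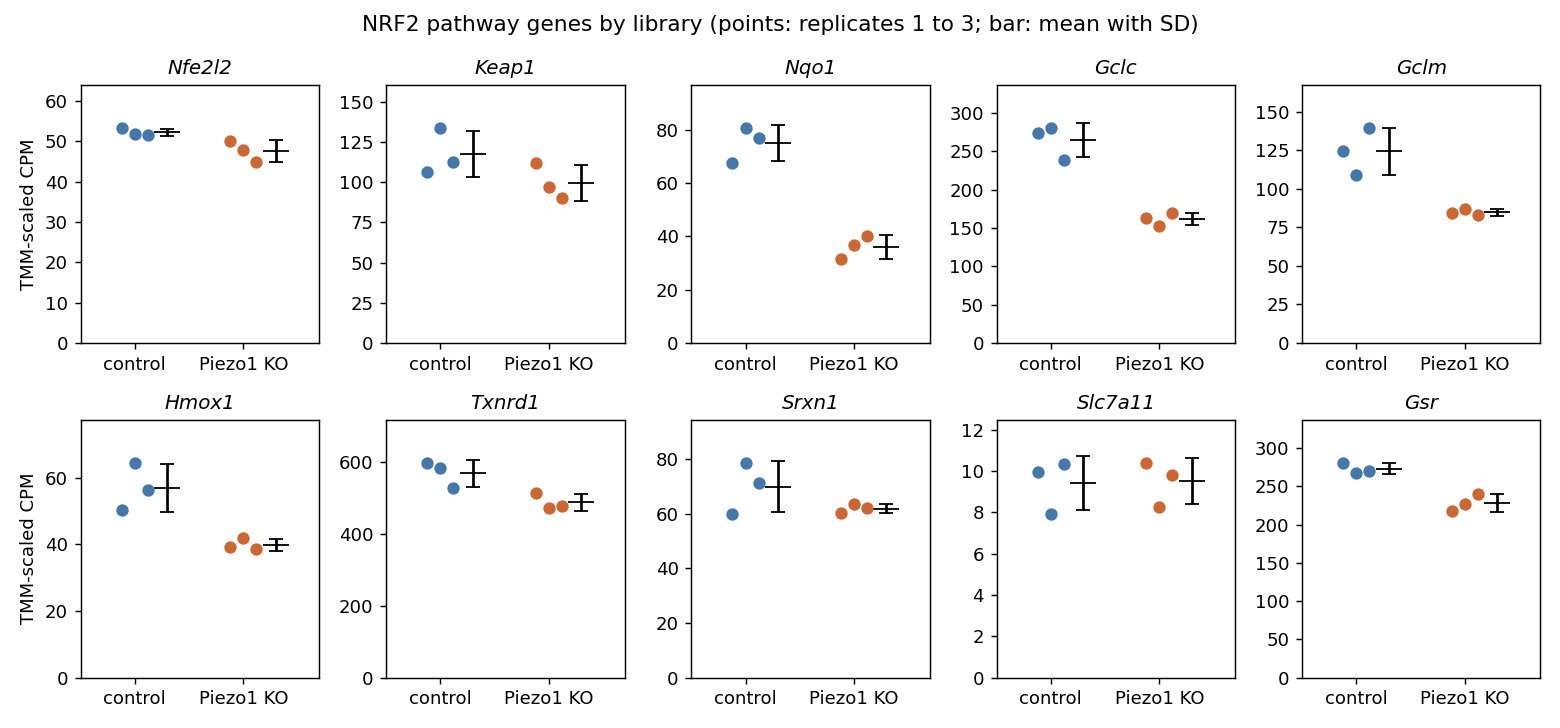
Level of each of the 10 genes in TMM-scaled CPM (y axis, from 0) in 3 control and 3 Piezo1 KO libraries (points), with the group mean and SD beside them. Nqo1 lies at 67.7 to 80.7 CPM in control and 31.4 to 40.2 CPM in Piezo1 KO, while the points of Slc7a11 overlap between groups.

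Across the 10 genes, 9 had a negative log2 fold change, and in 7 every Piezo1 KO library lay below every control library, which held for 10.5% of all genes tested. The median log2 fold change of the 10 was −0.25, and that of all genes tested was 0.02. The fit across all genes called 2 of the 10 lower in Piezo1 KO, Nqo1 and Gclc, and none higher, where 0.509% of all genes were called lower and 1.51% were called in either direction. Since the genes were chosen with this comparison in view, these counts are a description and nothing is read from them. Nqo1 was called in 11 of 12 alternative fits and was not called without Piezo1 KO replicate 2, where its log2 fold change was −1.07. Gclc was called in 7 of 12, and the fits that did not call it included those without control replicate 1 and without Piezo1 KO replicate 1, 2 or 3, where its log2 fold change was −0.68, −0.73, −0.67 and −0.74. Summed over the 10 genes, the share of all counts was 0.159% to 0.166% in control and 0.120% to 0.129% in Piezo1 KO.

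**Figure D2:**
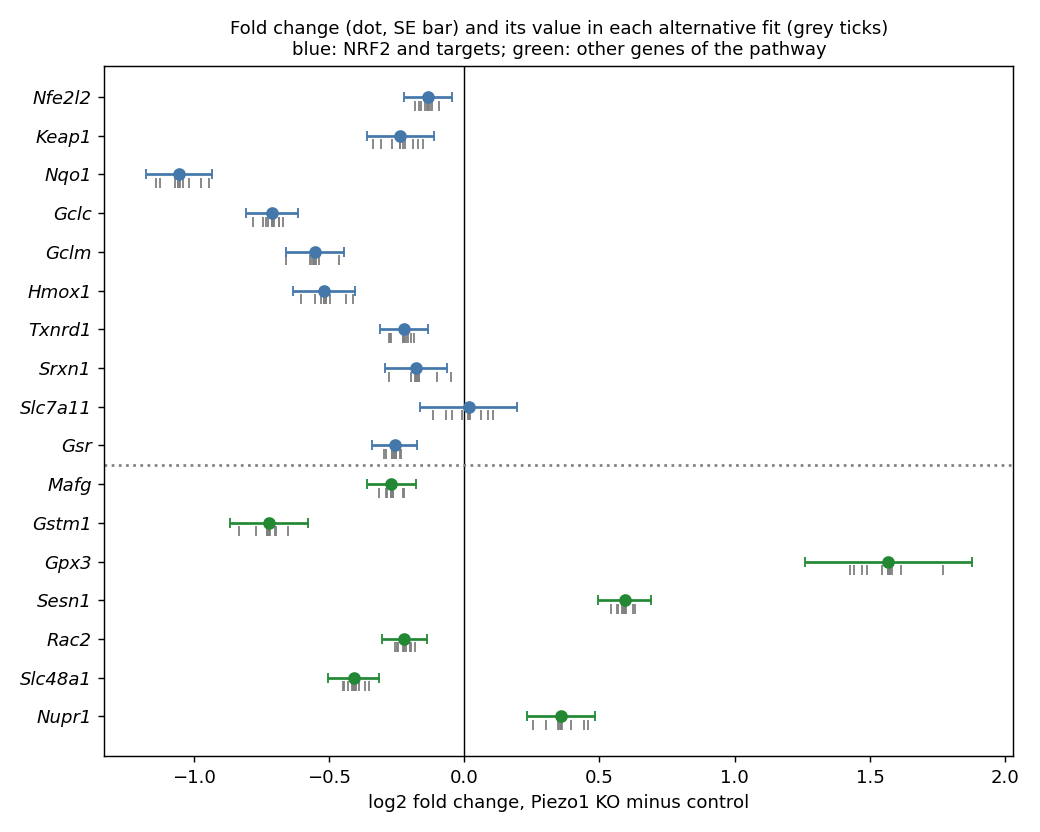
Log2 fold change of each gene (x axis, Piezo1 KO minus control) with its SE (bar) and its value in each alternative fit (grey ticks), blue for the 10 genes and green for other pathway genes named by rule. Nqo1 at −1.05 and Gclc at −0.71 lie farthest below 0 among the 10, and Gpx3 at 1.57 has the widest bar.

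Nqo1, Hmox1 and Gsr lie on chromosome 8, as Piezo1 does, at distances of 15.08, 47.38 and 88.78 Mb from it. Of 745 tested genes placed on that chromosome, 9 were called in either direction (1.21%). The other 7 of the 10 genes, Gclc and Gclm among them, lie on other chromosomes. The share of 1.21% covers the whole chromosome and does not describe the stretch near Piezo1. The part of position in these values was not tested.

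Levels between genes were compared as CPM per kb of exon (all annotated exons of a gene joined). In control, Gsr was highest at 99.1 ± 2.53 CPM per kb, then Txnrd1 at 80.3 ± 5.30, Gclc at 70.3 ± 5.94, Nqo1 at 48.3 ± 4.30 and Hmox1 at 32.5 ± 4.10 CPM per kb (SD, n = 3). Keap1 (25.1 ± 3.08), Srxn1 (24.8 ± 3.35), Gclm (19.8 ± 2.41), Nfe2l2 (13.8 ± 0.26) and Slc7a11 (0.676 ± 0.0938 CPM per kb) followed. Control libraries of neighbouring genes overlapped for Txnrd1 and Gclc, Keap1 and Srxn1, and Srxn1 and Gclm, so those neighbours were not apart beyond their spread. In Piezo1 KO the level of Nqo1 was 23.3 ± 2.88 CPM per kb, in the same range as Hmox1 (22.8 ± 0.98), Srxn1 (21.9 ± 0.57) and Keap1 (21.3 ± 2.38), whereas Gsr, Txnrd1 and Gclc remained the highest at 82.9 ± 4.18, 68.8 ± 3.31 and 43.0 ± 2.16 CPM per kb (SD, n = 3).

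**Figure D3:**
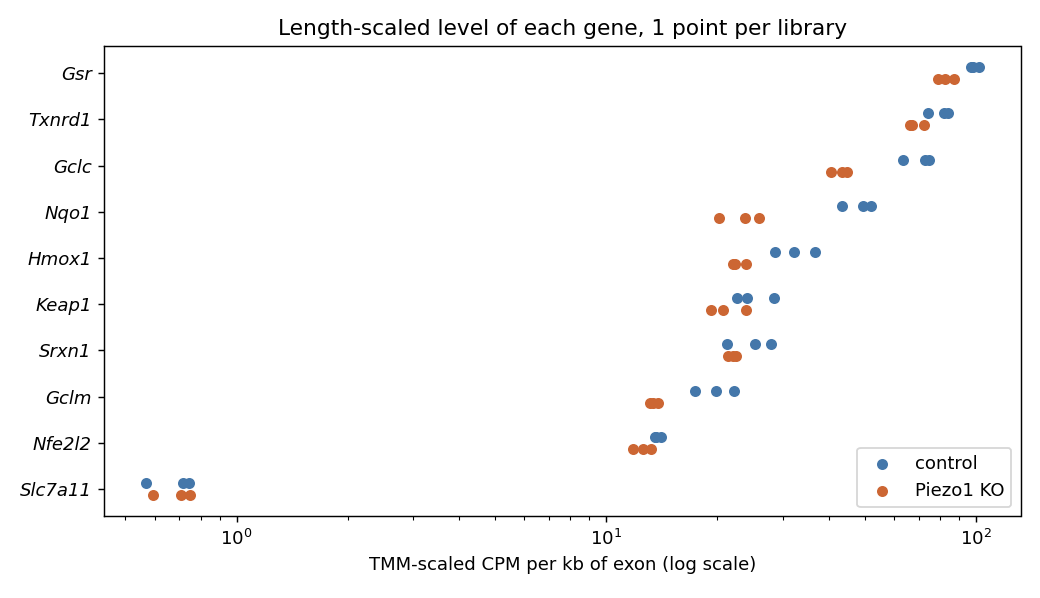
Level of each gene in TMM-scaled CPM per kb of exon (x axis, log scale), 1 point per library, control in blue and Piezo1 KO in orange, ordered by the control mean. Gsr is highest at 99.1 CPM per kb in control, and Slc7a11 lies far below the other genes at 0.676.

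Levels of several of the genes followed each other over all libraries, and the values were different with the group means removed. Over the 6 libraries, Pearson's r of log2 CPM was 0.95 between Nqo1 and Gsr, 0.95 between Nqo1 and Gclc and 0.94 between Nqo1 and Hmox1, while Slc7a11 had r between −0.54 and 0.17 with the other genes. With the group means removed, the r of Nqo1 was 0.45 with Gsr, 0.02 with Gclc and 0.53 with Hmox1, and with Nfe2l2 it was −0.92, against 0.66 with the group means left in. The r of Gclc with Gclm was then −0.87 and that of Hmox1 with Srxn1 0.95. These values share the same 6 libraries and their scaling and are given as a description. The 5 genes whose level followed that of Nfe2l2 most closely, among 8973 genes of at least 3 log2 CPM, were Trappc9, Trp53, Pou2f1, Nfic and Gm45713 (Pearson's r from 0.9975 to 0.9746 over 6 libraries), and leaving out any 1 library kept only 1 or 2 of these 5.

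Other genes of the NRF2 system were described through lists. Among 10 tested genes of 13 for partners, competitors and turnover of NRF2, 0 were called, with 6 positive and 4 negative log2 fold changes and a median of 0.05. At an unadjusted p under 0.05 there were 1 higher and 1 lower, where 6.30% of all genes tested were higher and 6.91% lower at that p. Mafg, a small MAF partner of NRF2, had the smallest p, at 84.7, 97.7 and 88.2 CPM in control and 76.2, 74.2 and 74.3 CPM in Piezo1 KO (log2 fold change −0.27 ± 0.09, SE, adjusted p = 0.242, edgeR). The small MAF genes did not move together. Maff was higher without overlap, at 3.43 to 4.48 CPM in control and 4.73 to 6.25 CPM in Piezo1 KO, and was not called. Mafk overlapped, at 41.1 to 60.8 and 45.0 to 48.9 CPM. Bach1, which competes with NRF2 for the same elements, was at 2.62 to 5.11 CPM in control and 3.21 to 5.25 CPM in Piezo1 KO. Cul3, the scaffold of the ligase, was at 22.4 to 22.9 CPM in control and 18.6 to 28.2 CPM in Piezo1 KO, and Sqstm1, the autophagy receptor that binds KEAP1, at 318 to 388 and 339 to 374 CPM. Maff, Mafk, Bach1, Cul3 and Sqstm1 were singled out for their roles after their values had been seen.

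Among 23 tested genes of 24 other documented NRF2 targets, 0 were called. Their log2 fold changes were positive in 16 and negative in 7, with a median of 0.08, against 1 positive and 9 negative among the 10 genes. At an unadjusted p under 0.05 there were 5 higher and 2 lower of 23 (6.30% and 6.91% of all genes). Gstm1, a glutathione transferase, had the smallest p, at 17.9, 16.5 and 17.2 CPM in control and 9.21, 11.9 and 10.1 CPM in Piezo1 KO. Its groups did not overlap, but its log2 fold change of −0.72 ± 0.15 (SE) did not pass (adjusted p = 0.0606, edgeR, with a range of 0.00312 to 0.239 over the alternatives and 0.0447 without control replicate 2). Gstm1 has close paralogs, so how reads were divided among them is uncertain. Chosen after their values were seen, G6pdx, the first enzyme of the pentose phosphate pathway, was at 169.6 to 199 CPM in control and 149.7 to 152 CPM in Piezo1 KO, and Me1, the malic enzyme that also makes NADPH, at 23.8 to 29.9 and 33.6 to 38.8 CPM (adjusted p = 0.2098 and 0.209, edgeR). Ptgr1 (4.58 to 6.03 and 8.07 to 10.3 CPM) and Gstp1 (213 to 288 and 297 to 349 CPM), chosen likewise, were also higher without overlap. Their log2 fold changes were 0.77 and 0.38 (adjusted p = 0.136 and 0.242, edgeR).

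Genes of glutathione synthesis, turnover and use beyond the ligase were split almost evenly in sign. Of 25 tested of 28, 0 were called, 13 were positive and 12 negative, and the median log2 fold change was 0.0008. At an unadjusted p under 0.05 there were 6 higher and 1 lower of 25 (6.30% and 6.91% of all genes). Gpx3, a secreted glutathione peroxidase, had the smallest p, at 1.41, 1.22 and 1.35 CPM in control and 4.40, 4.66 and 2.73 CPM in Piezo1 KO, a log2 fold change of 1.57 ± 0.31 (SE, adjusted p = 0.0565, edgeR, 0.00277 to 0.321 over the alternatives). Gpx4, the peroxidase of membrane lipids, was at 216 to 320.1 CPM in control and 217 to 271 CPM in Piezo1 KO, and Slc3a2, the partner chain of xCT, at 581 to 655 and 569 to 620.0 CPM. Gss, glutathione synthetase, overlapped between the groups, at 30.4 to 38.2 CPM in control and 27.6 to 31.7 CPM in Piezo1 KO. Gpx4, Slc3a2 and Gss were picked for their roles after their values had been seen.

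Among 16 tested genes of 17 for thioredoxins, peroxiredoxins and methionine sulfoxide reductases, 1 was called higher and 0 lower. Over all genes tested, 1.00% were called higher and 0.509% lower. The log2 fold changes of the list were positive in 9 and negative in 7, with a median of 0.03. The called gene was Sesn1, sestrin 1, a p53 target that restrains mTORC1. It was at 38.1, 36.7 and 33.6 CPM in control and 51.5, 55.3 and 56.8 CPM in Piezo1 KO, a log2 fold change of 0.59 ± 0.10 (SE, adjusted p = 0.0275, edgeR). The direction held in 12 of 12 alternative fits, but the call was lost without control replicate 1 (adjusted p = 0.119, edgeR) and without Piezo1 KO replicate 1, 2 or 3 (adjusted p = 0.101, 0.186 and 0.155), in a range of 5.71e-05 to 0.186 over the alternatives. The remaining 15 tested genes did not pass, and at an unadjusted p under 0.05 the list had 3 higher and 1 lower of 16 (6.30% and 6.91% of all genes).

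Lists next to the pathway held no called gene. Of 10 tested genes of 15 for superoxide sources and dismutases, 7 were positive with a median log2 fold change of 0.04, and Rac2, a GTPase of the phagocyte NADPH oxidase, had the smallest p (log2 fold change −0.22 ± 0.08, SE, adjusted p = 0.296, edgeR). Of 7 tested genes of 9 for heme handling, 5 were positive with a median of 0.05, and Slc48a1, a heme transporter, was at 142 to 165 CPM in control and 109.7 to 115 CPM in Piezo1 KO (log2 fold change −0.41 ± 0.09, SE, adjusted p = 0.0944, edgeR, 0.00377 to 0.458 over the alternatives). Of 9 genes of the ATF4 amino acid response, which also drives Slc7a11, 3 were positive with a median of −0.14, and Nupr1, a stress-induced chromatin protein, had the smallest p (log2 fold change 0.36 ± 0.13, SE, adjusted p = 0.267, edgeR). At an unadjusted p under 0.05 these lists held 0 higher and 1 lower, 0 higher and 1 lower, and 1 higher and 2 lower, beside the same 6.30% and 6.91% of all genes. Whether the 10 genes differ from these lists was not tested.

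**Figure D4:**
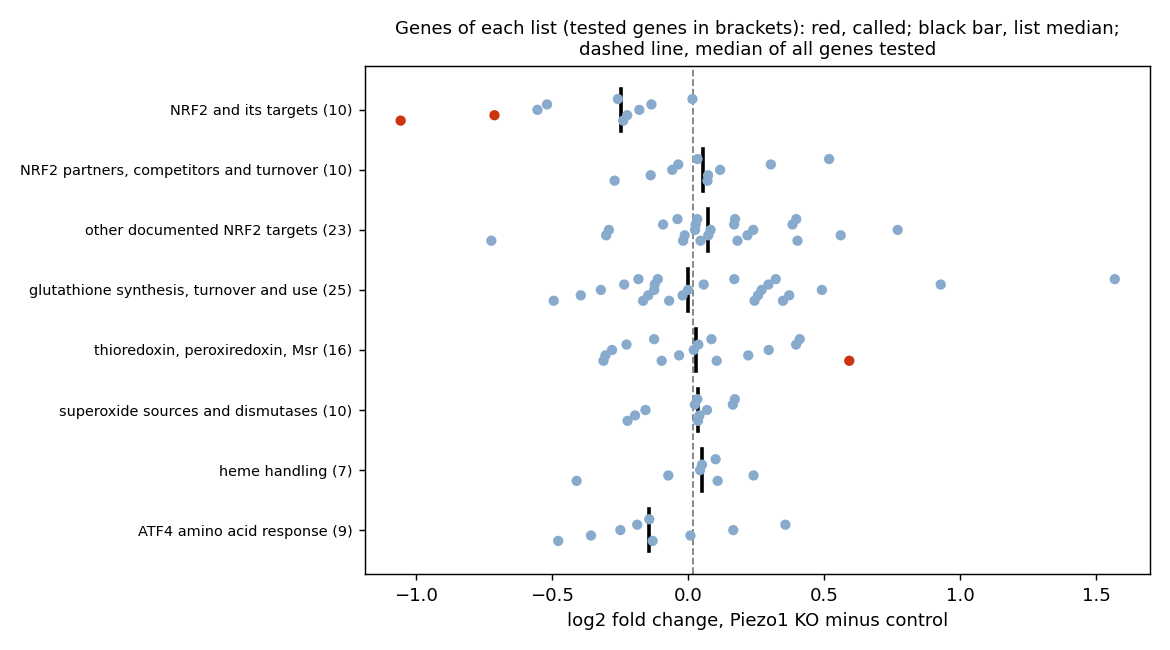
Log2 fold change (x axis, Piezo1 KO minus control) of each tested gene in 8 lists, with called genes in red, the median of each list as a black bar and the median of all genes tested as a dashed line. The median is −0.25 for NRF2 and its targets and 0.08 for the other documented NRF2 targets.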

How the data were processed

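The authors deposited one table of estimated counts, unscaled and in part fractional. Reads were placed on mm10, per the submitters' processing notes. Aligner, counter, annotation and strandedness: not given in the sources used here. Library rows were matched to samples by the sample description, and titles gave the groups and replicate numbers.

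Estimated counts were rounded, filtered with filterByExpr (14149 of 18057 genes), scaled by TMM and tested across all genes with edgeR 4.0.16 (R 4.3.3) quasi-likelihood tests, two-sided, with Benjamini-Hochberg adjustment and a threshold of 0.05. SEs are the absolute log2 fold change divided by the square root of F. Log2 CPM used a prior count of 2. The fit was also run on simulated counts with the same dispersion for every gene, unlike the data, and no result here rests on that run. Positions and exon lengths come from GENCODE M21 (GRCm38, which is mm10), promoters from RefSeq.

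The members and all lists were chosen with earlier results of these data known. Genes outside the 10 members were named by a rule, apart from markers and those marked in the text as picked after their values were seen: Piezo1, up to 3 called genes of each list with the smallest p or else the 1 gene with the smallest p, and the 5 genes most like Nfe2l2. Alternatives were RLE size factors, no filter, the replicate number as a block, a stricter filter (1 CPM in every library of either group), each library left out, DESeq2 1.42.0 and limma-voom (limma 3.58.1) with sample quality weights.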

Additional observations from a re-analysis of the deposited data

How the results depend on the processing

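The log2 fold changes of the 10 genes moved by less than the spread between replicates in all 12 alternatives, and 9 of the 10, all but Slc7a11, stayed negative. The count of all genes called, 214, was 52 with the replicate number as a block, 593 in DESeq2 and 439 in limma-voom, and 33 to 297 with 1 library left out (34 without control replicate 1, and 35, 33 and 53 without Piezo1 KO replicates 1, 2 and 3). The share of called genes that were higher was 66.4% and did not move by over 10 percentage points. Of the 10 genes, 1 was called with the block (Nqo1, while Gclc, at a log2 fold change of −0.71, was not). DESeq2 called 4, limma-voom 3, and the fits with 1 library left out 0 to 3, all lower. Among all 14149 genes tested, 15 were called lower with the block, 241 in DESeq2 and 172 in limma-voom. With 1 library left out, 10 to 92 of 14492 to 14555 genes were called lower. The count of called genes in the other lists, 1, was 0 with the block, 5 in DESeq2, 3 in limma-voom and 0 to 2 with 1 library left out. Piezo1 had a log2 fold change of −0.85 in DESeq2 and −0.93 in limma-voom, where it passed (adjusted p = 0.00193 and 0.0157), and −1.05 to −0.70 with 1 library left out. Of the 5 genes most like Nfe2l2, 3 were kept with no filter and 3 with the stricter filter, and 1 to 2 with 1 library left out. Same-numbered libraries of the groups did not deviate together (correlations of −0.02, −0.18 and −0.01 for replicates 1, 2 and 3), so the numbers are not taken to pair them. With the block, Sesn1 had an adjusted p of 0.168 (edgeR). At the lowest levels, such as Slc7a11 and Gpx3, counting error adds to the spread.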
